A study of Sus scrofa with 27 samples.

Results

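The RAS to ERK cascade was described here by 7 genes: GRB2 and SOS1, which pass the signal of a receptor on to RAS, the GTPase gene NRAS, the kinase gene BRAF, the MEK genes MAP2K1 and MAP2K2, and the ERK1 gene MAPK3. The genes were listed by symbol, with earlier results of these data known. Each symbol matched 1 pig Ensembl identifier, and all 7 were among the 11384 named genes tested, of 35670 identifiers in the count files. Mural granulosa cells (GCs), which line the inner follicle wall, were cut by laser capture microdissection from the largest healthy follicle in the right ovary of each sow. The sows were first-litter Large White times Norwegian Landrace animals of wild type genotype. There were 13 full-fed (FF) sows on 6.5 kg of feed per day and 14 restricted (RES) sows on 3.25 kg per day over the last 2 weeks of lactation. All of them were fed alike after weaning, and the ovaries were taken on day 2 after weaning. Each library came from 1 sow, so that n counts sows. The methods say that the RES sows were those with the highest weight loss of a larger group and the FF sows those with the lowest, and follicles were not matched for size. Diet therefore cannot be told apart from body condition or follicle size.

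In this cascade a growth factor receptor is phosphorylated, the adaptor GRB2 binds it and brings the exchange factor SOS1 to the membrane, and SOS1 loads RAS with GTP. RAS then recruits RAF kinases, RAF phosphorylates MEK, and MEK phosphorylates ERK. In GCs the pathway is known to act in proliferation, in the response to the luteinizing hormone surge and in the control of steroid synthesis. Its activity is set mainly by phosphorylation, which read counts do not measure. RAS, RAF, MEK, ERK and SOS each exist as closely related paralogs. CDK1, the kinase that drives entry into mitosis, was used as the proliferation readout to which the cascade genes were compared.

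Library totals lay between 12299220 and 16021200 counts in FF and between 12942198 and 18120922 in RES. Marker genes of GCs dominated, with a summed level of 79510 to 130540 normalized counts in FF and 80687 to 161103 in RES over 10 measured genes. Theca markers summed to 2392 to 13631 in FF and 1108 to 12599 in RES, stroma and smooth muscle markers to 7436 to 28963 and 6395 to 26479, and endothelial markers to 1176 to 2383 and 830 to 2346. Immune markers reached at most 538. Of these lists, 1 of 10 GC markers rose, and 1 of 6 theca, 1 of 8 stroma and 3 of 7 endothelial markers fell in RES. The same edgeR test, at an adjusted p under 0.05, called 14.1% of all genes tested. Markers of proliferating cells summed to a median of 12342 in FF and 31142 in RES, and 11 of 13 rose. In bulk samples fewer cells of a type and less RNA per cell cannot be told apart. RES sows 3 and 5 had the lowest read quality of the 27 libraries in the paper's supplement. Where a fit without them was run, results that rest on them are given with and without them.

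Levels between genes were compared per kilobase of RefSeq exon, as normalized counts per library. NRAS was the highest of the 7 in both groups, at 1145 ± 149.9 per kb (SD, n = 13) in FF and 1376 ± 270.0 (n = 14) in RES, and every library was above every level of the next gene. SOS1 with 293.8 ± 34.8 and GRB2 with 272.9 ± 47.9 followed in FF, where SOS1 was above GRB2 in 8 of 13 libraries. In RES GRB2 was at 350.3 ± 92.8 and SOS1 at 294.0 ± 26.7, with GRB2 above SOS1 in 10 of 14. The difference between these means was smaller than the SD of GRB2 in both groups. BRAF came next in both groups, at 103.2 ± 8.6 in FF and 95.9 ± 9.4 in RES. MAPK3, MAP2K1 and MAP2K2 closed the order with means between 67.2 and 83.7 per kb, and in each group their ranges overlapped. The level of NRAS rests on a short RefSeq model of 880 exon bases in 1 transcript, and that of BRAF on 16476 bases over 9 transcripts. The counts were made on Ensembl models, so the order holds only for these lengths. For MAP2K1 it also rests on bases shared with another gene. If no pair meeting both genes was counted, its counts belong to the 1361 RefSeq exon bases not shared with SNAPC5. Divided by that length, its level was 132 ± 30.8 per kb in FF and 140.4 ± 26.7 in RES. It was then above BRAF in 10 of 13 and 13 of 14 libraries. No counts were taken over these bases alone.

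**Figure D1:**
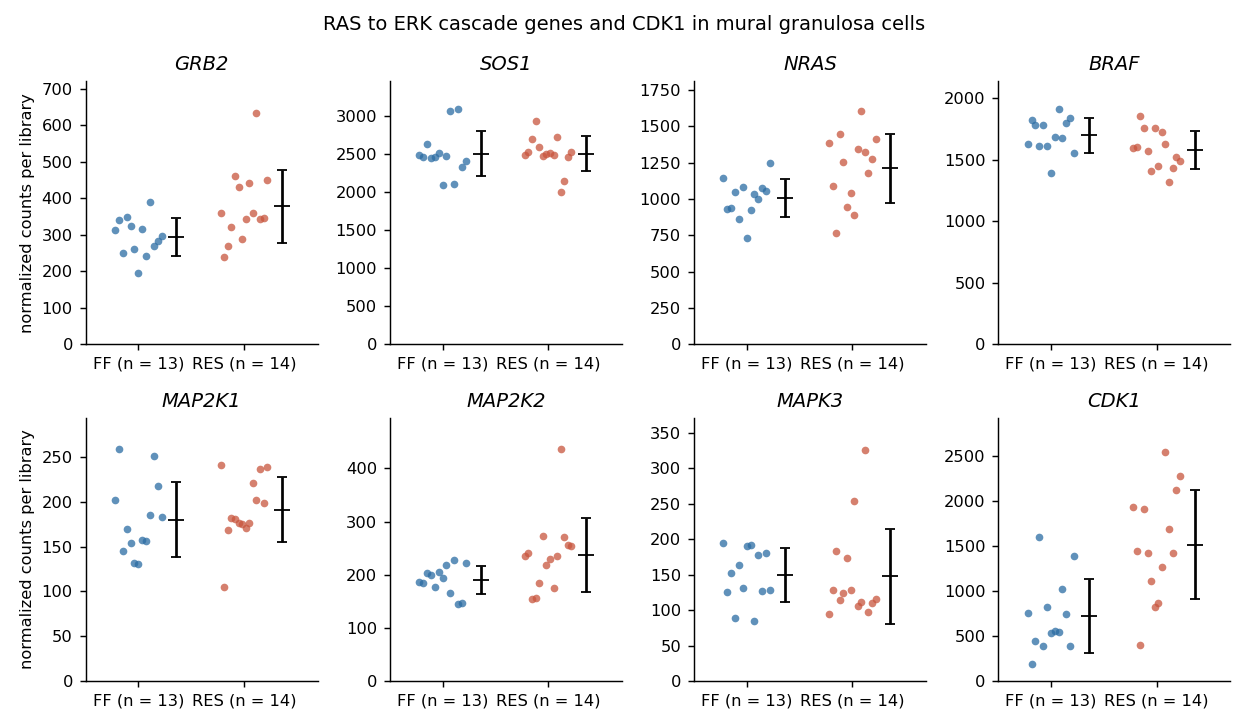
Normalized counts (counts divided by DESeq2 size factors) of the 7 cascade genes and CDK1, 1 point per sow, with mean and SD beside the points. RES sow 3 is the highest RES point in GRB2 (633), MAP2K2 (436) and MAPK3 (326), and FF and RES overlap in all 8 panels.

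No cascade gene was called different between RES and FF. With edgeR's quasi-likelihood test and Benjamini-Hochberg adjustment over all genes, 0 of 7 had an adjusted p under 0.05, where 14.1% of all genes tested did. At an unadjusted p under 0.05 there were 4 of 7 (GRB2, NRAS, MAP2K2 and BRAF), against 30.0% of all genes. DESeq2 called GRB2 alone, against 17.0% of all genes, and limma voom with sample quality weights called GRB2, NRAS and BRAF, against 28.0%. The median log2 fold change of the 7 was 0.04 and that of all genes tested -0.02. CDK1 itself rose in RES, with a lowest, median and highest level of 185, 553 and 1607 normalized counts in FF and 399, 1434 and 2545 in RES. Its log2 fold change was 1.03 ± 0.26 (SE; edgeR, adjusted p = 0.00926), and 13 of 14 RES sows were above the FF median.

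**Figure D2:**
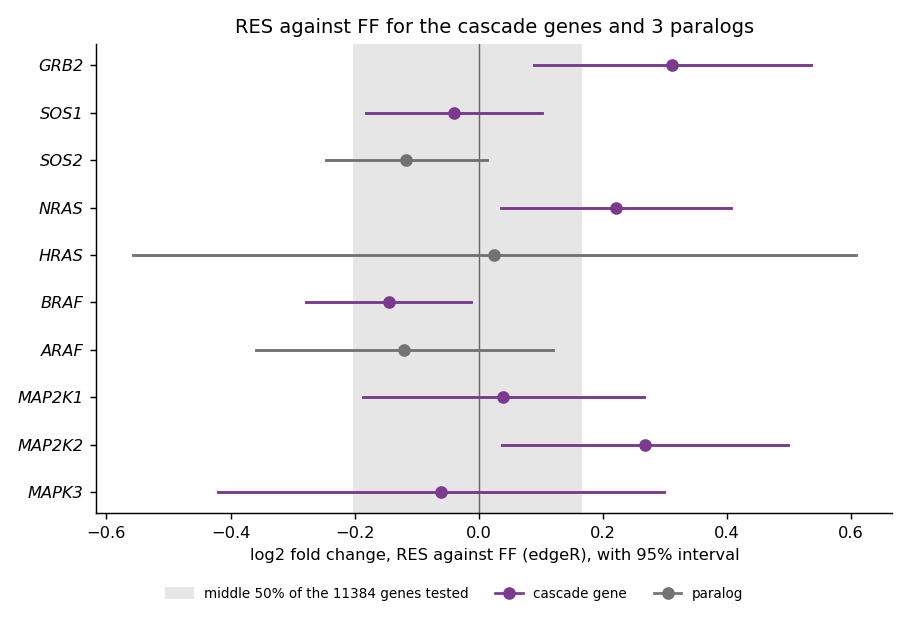
Log2 fold change of RES against FF (edgeR, x axis) with its 95% interval for each cascade gene and 3 paralogs, over 13 FF and 14 RES libraries. The intervals of GRB2, NRAS, MAP2K2 and BRAF leave out 0, but no adjusted p of the 10 genes was under 0.05, and the grey band is the middle 50% of all genes tested.

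GRB2, the adaptor that links phosphorylated receptors to SOS proteins, lies at chr12:5940723-6009095 on the plus strand of Sscrofa11.1. It was measured at 196, 297 and 389 normalized counts (lowest, median, highest) in FF and at 239, 353 and 633 in RES. The groups overlapped, 11 of 14 RES sows were above the FF median and 5 above the highest FF sow. The log2 fold change was 0.31 ± 0.11 (SE), a ratio of 1.24 with a 95% interval of 1.06 to 1.45, and the edgeR adjusted p of 0.0532 missed the threshold. It came under the threshold with DESeq2 (adjusted p = 0.0414), with voom (0.0311) and with DESeq2's size factors in edgeR (0.0409, where 15.1% of all genes were called). It also did so on leaving out FF sow 1 (0.0345), FF sow 3 (0.0459), RES sow 2 (0.0483), RES sow 4 (0.0254), RES sow 7 (0.0264) or RES sow 10 (0.0368). Over the 27 fits with a library left out, the adjusted p ranged from 0.0254 to 0.0997. Without RES sows 3 and 5 the log2 fold change was 0.25 (edgeR adjusted p = 0.0989). Libraries were divided by read quality into an upper group (7 FF, 7 RES) and a lower group (6 FF, 7 RES), and the log2 fold change was 0.17 and 0.44 in these. The supplement marks no sample as excluded, but its FF row of lowest RNA integrity is not the sow number missing from the labels. Its numbering may therefore differ from that of the labels. With FF sow 10 in the upper group, as that other numbering would have it, the log2 fold changes were 0.23 and 0.35. An interaction of diet and quality group in edgeR gave an adjusted p of 0.634 for GRB2, and none of the 11384 genes was called in it.

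SOS1, the exchange factor that loads RAS with GTP, lies at chr3:101209568-101366057 on the plus strand. Its levels were 2099, 2463 and 3096 in FF and 2007, 2512 and 2945 in RES. The groups overlapped almost fully, 12 of 14 RES sows were above the FF median, and the lowest RES value was that of sow 3. The ratio was 0.973 with a 95% interval of 0.882 to 1.07 (edgeR adjusted p = 0.741). With DESeq2's size factors, which shift the median gene by 0.04 on the log2 scale, its log2 fold change was 0.00. SOS2, the paralog, had a ratio of 0.922 (0.843 to 1.01; adjusted p = 0.215). Per length, SOS1 made up 57.8 ± 1.6% of the SOS counts in FF and 59.1 ± 1.8% in RES, a difference of 1.30 percentage points (two-sided permutation p = 0.0560, adjusted over 5 such comparisons 0.144). Without RES sows 3 and 5 the log2 ratio of SOS1 to SOS2 differed by 0.10 (permutation p = 0.0170, not adjusted), against 0.08 with them (p = 0.0561).

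NRAS encodes the membrane-bound GTPase that switches RAF on when it holds GTP. It lies at chr4:105845913-105853769 on the plus strand. Its levels were 729, 1037 and 1249.7 in FF and 769, 1264 and 1604 in RES. The groups overlapped at their low ends, while 8 of 14 RES sows were above the highest FF sow and 11 above the FF median. RES sow 1 had the highest value of all, and RES sow 7 the lowest of its group, near that of FF sow 10, the lowest of all. The log2 fold change was 0.22 ± 0.09 (SE), a ratio of 1.17 with a 95% interval of 1.03 to 1.32 (edgeR adjusted p = 0.0974). The adjusted p ranged from 0.0281 to 0.170 over the 27 fits with a library left out, and was under 0.05 only without RES sow 7 (0.0281). Without RES sows 3 and 5 the log2 fold change was 0.25 (adjusted p = 0.0674). Within the upper quality group the log2 fold change was 0.23, and within the lower it was 0.22 (0.28 and 0.16 with FF sow 10 in the upper group).

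HRAS, a RAS paralog, was near the limit of detection, with 3 to 10 counts per library in FF and 1 to 16 in RES. The 95% interval of its ratio, 0.679 to 1.52, says little about a change.

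The 177 bases before NRAS and the 250 bases before CDK1 are shown because NRAS was the 1 cascade gene that passed against CDK1 in RES by Pearson's r (by Spearman's rho MAP2K1 passed as well). Both come from the RefSeq genome of Sscrofa11.1, plus strand, at chr4:105845736-105845912 and chr14:64233695-64233944. Capitals mark matches, on either strand, to the CCAAT box (CCAAT), to the cell cycle homology region (TTTGAA) and to E2F sites (TTTCCCGC, TTTGGCGC, TTTCGCGC or TTTGCCGC).
NRAS: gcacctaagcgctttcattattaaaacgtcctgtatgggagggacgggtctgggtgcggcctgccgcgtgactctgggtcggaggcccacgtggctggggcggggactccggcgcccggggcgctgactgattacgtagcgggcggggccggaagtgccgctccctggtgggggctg
CDK1: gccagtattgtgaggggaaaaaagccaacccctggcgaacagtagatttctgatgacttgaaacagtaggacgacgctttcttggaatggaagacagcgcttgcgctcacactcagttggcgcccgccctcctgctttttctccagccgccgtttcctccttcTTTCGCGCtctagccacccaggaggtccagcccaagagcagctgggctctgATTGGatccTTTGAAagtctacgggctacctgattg
The CDK1 window held 1 match of each kind, the E2F site 87, the CCAAT box 36 and the cell cycle homology region 27 bases before the start, none overlapping. The NRAS window held none, nor did the full 250 bases before NRAS. Among 19559 promoter windows of the same length, 31.9% held a CCAAT box, 12.5% a cell cycle homology region, 2.81% an E2F site and 0.153% all 3 kinds. Of the other cascade genes MAP2K1 held a CCAAT box, 121 bases before its start, and GRB2, SOS1, BRAF, MAP2K2 and MAPK3 held no match. A match is a run of letters and no sign of binding.

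BRAF, the RAF kinase that RAS recruits and that phosphorylates MEK, lies at chr18:8957963-9132558 on the plus strand. Its levels were 1395, 1682 and 1916 in FF and 1317, 1585 and 1855 in RES. They overlapped almost fully, with 10 of 14 RES sows below the FF median and sow 3 lowest. The ratio was 0.904 with a 95% interval of 0.825 to 0.991 (log2 fold change -0.15 ± 0.06; edgeR adjusted p = 0.129), and without RES sows 3 and 5 the log2 fold change was -0.11 (adjusted p = 0.245). ARAF, another RAF kinase, had a ratio of 0.920 (0.780 to 1.09).

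Neither of the MEK genes, whose products phosphorylate ERK, was called. MAP2K1 (chr1:164381892-164469313, plus strand) was at 130.4, 169 and 259 in FF and at 105, 182 and 241 in RES. Of the RES sows 12 of 14 were above the FF median, but FF sows 2 and 7 were above every RES sow. Its ratio was 1.03 (0.878 to 1.20; edgeR adjusted p = 0.848). MAP2K2 (chr2:74626739-74651352, plus strand) was at 145, 194 and 227 in FF and at 155, 235 and 436 in RES. Here 9 of 14 RES sows were above the highest FF sow, while 4 were below the FF median. The ratio was 1.20 (1.03 to 1.41; log2 fold change 0.27 ± 0.11; adjusted p = 0.106). RES sow 3 was far above the next RES sow, which had 273. Without RES sows 3 and 5 the log2 fold change fell to 0.18 (adjusted p = 0.222), with GC percentage of reads as a covariate it was 0.19 (0.170), and without RES sow 7, where 20.6% of all genes were called, it was 0.30 (0.0489). In the upper quality group, which holds neither sow 3 nor sow 5, MAP2K2 was called (log2 fold change 0.36, edgeR adjusted p = 0.0225), as were 17.8% of all genes. In the lower group it was not (0.18, adjusted p = 0.793), and the interaction of diet and quality group had an adjusted p of 0.782. With FF sow 10 in the upper group MAP2K2 was called there (0.34, adjusted p = 0.0420; 9.07% of all genes), and with the other numbering the GC fit gave 0.14 (0.345).

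The MAP2K2 share of the MEK counts per length was 47.8 ± 7.8% in FF (33.1 to 57.0%) and 50.9 ± 7.3% in RES (42.2 to 66.2%). The difference of 3.13 points was within the spread (permutation p = 0.296), and only 6 of 14 RES sows were above the FF median. The SD between sows of a group was larger than the difference between the diets. Their coding sequences were 76.8% identical. Of the 2411 exon bases of MAP2K1, 1050 are shared with SNAPC5 on the opposite strand. The counting command in the file headers sets neither a strand option nor one that counts pairs meeting 2 genes, and without these featureCounts leaves such pairs uncounted. The overlap was read from RefSeq and not from the Ensembl models used for counting. On the assumption that no shared pair was counted, the MAP2K1 counts were divided by the length of the unshared bases alone. The MAP2K2 share was then 34.3 ± 6.8% in FF and 37.2 ± 7.1% in RES, a difference of 2.87 points (permutation p = 0.301; chosen after seeing the data).

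MAPK3, the gene of ERK1, lies at chr3:18291444-18299410 on the minus strand. Its levels were 84.9, 152 and 195 in FF and 95.1, 119.9 and 326 in RES. RES sows 3 (326) and 5 (255) were above all FF sows, while 10 of 14 RES sows were below the FF median. Over all libraries the ratio was 0.959 (0.747 to 1.23; log2 fold change -0.06 ± 0.18; edgeR adjusted p = 0.853). Without RES sows 3 and 5 the log2 fold change was -0.30 (unadjusted p = 0.0423, adjusted 0.155).

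RES sow 3 lay outside the range of the 12 other RES sows (without sow 5) in 5 of the 7 cascade genes. It was at 1.80 times their median in GRB2, 1.85 times in MAP2K2 and 2.83 times in MAPK3, and these exons hold 56.3, 59.7 and 61.4% GC. In SOS1 and BRAF, with 38.1 and 40.3% GC, it was at 0.797 and 0.823 times. MAP2K1 (51.4% GC) and NRAS (45%) were at 1.11 and 1.05 times. Of the paralogs, ARAF (59.7%) was at 1.82 times and HRAS (68.6%), with few counts, at 1.07 times. Sow 5 was at 2.21 times in MAPK3 and 0.703 times in NRAS, and between 0.903 and 0.999 times in the remaining 5. Beyond the fit with GC percentage of reads as a covariate, the part of base composition in these values was not tested.

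**Figure D3:**
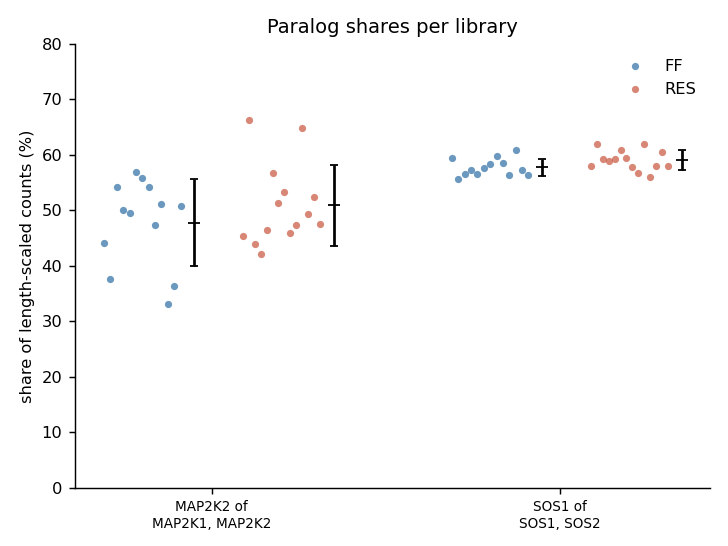
Share of length-scaled counts (%) taken by SOS1 and by MAP2K2 in their families, 1 point per sow, with mean and SD. SOS1 lies at 57.8% of the SOS counts in FF and 59.1% in RES, MAP2K2 at 47.8% and 50.9% of the MEK counts, and FF and RES overlap in both families.

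Within each group the cascade genes were set against CDK1 by Pearson's r on normalized counts, with 100000 permutations and adjustment over the 14 correlations. In RES, NRAS had r = 0.90 over 14 sows (permutation p = 2e-05, adjusted 0.00028) and rho = 0.85 (p = 0.00019, adjusted 0.00266). RES sow 1 was highest and RES sow 7 lowest in both genes. Without RES sows 5 and 7, the farthest from the NRAS median, r was 0.83 (permutation p = 0.00104), without RES sows 3 and 5 it was 0.89, and over all fits without 1 RES sow it was 0.86 to 0.94. Within the upper quality group r was 0.92 (n = 7, exact permutation p = 0.00476) and within the lower 0.92 (n = 7, exact permutation p = 0.00159). Of 7937 other genes that average 50 or more normalized counts, 169 (2.13%) had a higher r with CDK1 in RES, where the median r over genes was 0.14. Genes are not independent replicates, and the rank is a description.

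In FF, NRAS had r = 0.56 with CDK1 (permutation p = 0.0485, adjusted 0.226) and rho = 0.60 (p = 0.0322, adjusted 0.113). Without FF sows 4 and 10, the farthest from the NRAS median, r was 0.46 (permutation p = 0.158). Without FF sow 4 alone r was 0.40 (p = 0.199) and without FF sow 10 alone 0.62 (p = 0.0329), so that the relation in FF rests in part on sow 4. Upper quality FF sows gave 0.66 (n = 7) and lower quality FF sows 0.37 (n = 6), with exact permutation p values of 0.104 and 0.479 (0.58 and 0.42 with FF sow 10 in the upper group). The difference in r between RES and FF was not past the threshold (difference in Fisher z 0.85, permutation p = 0.0570, adjusted over 7 genes 0.199).

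No other cascade gene passed in either group by Pearson's r. MAP2K1 came closest in RES, with r = 0.53 (permutation p = 0.0473, adjusted 0.226) and rho = 0.75 (p = 0.00308, adjusted 0.0216), and without RES sows 4 and 11 r was 0.70 (p = 0.0117). In FF its r was -0.13, and the difference between the groups had a permutation p of 0.0540 (adjusted 0.199). In FF, BRAF had r = -0.48 with CDK1 (permutation p = 0.0992, adjusted 0.328) and rho = -0.61 (p = 0.0304). Without FF sows 10 and 14 its r was -0.80 (p = 0.00215, adjusted 0.0150), and without FF sow 10 alone -0.75 (adjusted p = 0.0289). In RES the r of BRAF was -0.26 and became 0.05 without RES sows 3 and 7. MAPK3 had r = -0.35 in FF and -0.34 in RES, and -0.67 in RES without sows 3 and 5 (permutation p = 0.0159, adjusted 0.112). GRB2, MAP2K2 and SOS1 had r between -0.12 and 0.45 in FF and between 0.06 and 0.26 in RES. After subtracting the mean of each quality group, GRB2 had r = 0.54 in RES (permutation p = 0.0433, adjusted 0.198). MAP2K2 and SOS1 had 0.23 and 0.13 by that measure. Within the upper and lower quality groups of RES, GRB2 had r = 0.67 and 0.52 (n = 7 each, exact permutation p = 0.0952 and 0.225).

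**Figure D4:**
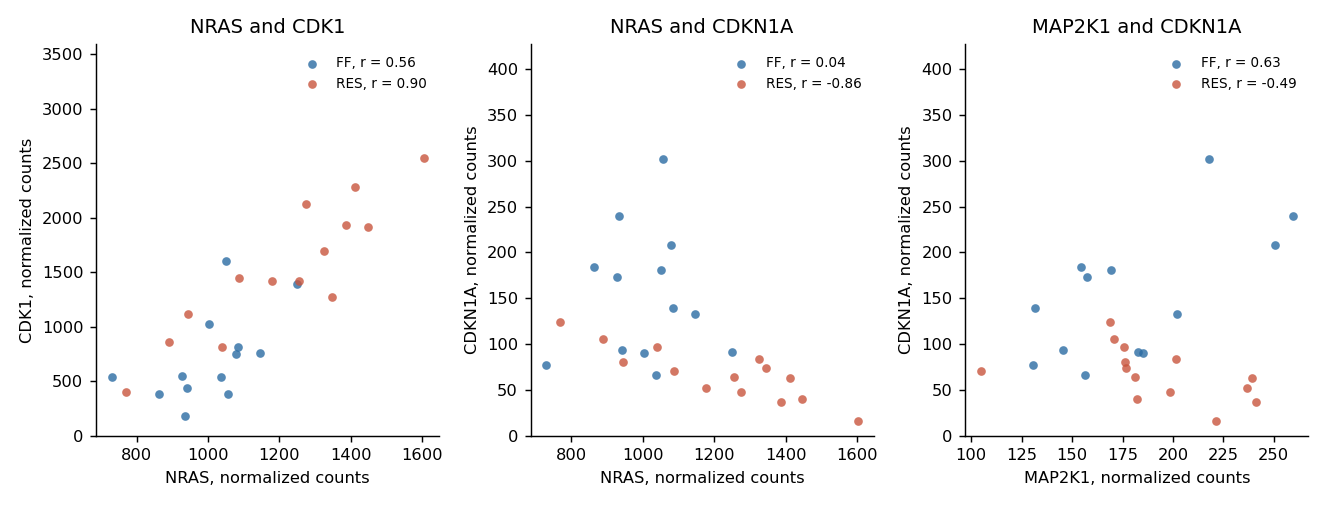
Normalized counts per sow of NRAS against CDK1 and CDKN1A and of MAP2K1 against CDKN1A, FF in blue and RES in red, with Pearson's r in each legend. In RES, NRAS goes up with CDK1 (r = 0.90) and down with CDKN1A (-0.86), and MAP2K1 has r = 0.63 with CDKN1A in FF and -0.49 in RES, neither of which passed after adjustment.

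The same was done for 3 genes of the axis that the study followed: CDKN1A, the p21 inhibitor of cyclin-dependent kinases, FOXO1, a transcription factor held out of the nucleus by AKT, and IGFBP7, a secreted protein that binds insulin-like growth factors. Of the 42 correlations, 0 of 21 in FF and 2 of 21 in RES passed by adjustment over all 42, and 5 and 6 had an unadjusted permutation p under 0.05. NRAS fell with rising CDKN1A in RES, with r = -0.86 (permutation p = 7e-05, adjusted 0.00294) and rho = -0.80 (p = 0.00091). Without RES sows 5 and 7 r was -0.73 (p = 0.00638), and it was -0.85 in the upper (n = 7, exact permutation p = 0.0161) and -0.86 in the lower quality group (n = 7, exact permutation p = 0.00655). Of 7936 other genes, 116 (1.46%) had a lower r with CDKN1A in RES, where the median r over genes was -0.09. FF sows gave r = 0.04, and the difference between the groups had a permutation p of 0.0135 (adjusted over 21 differences 0.110). MAP2K1 fell with rising FOXO1 in RES, with r = -0.77 (permutation p = 0.00073, adjusted 0.0153) and rho = -0.82 (p = 0.00065), and without RES sows 4 and 11 r was -0.90. A lower r with FOXO1 in RES was held by 347 of the 7936 genes (4.37%), and the median r was -0.13. In FF MAP2K1 had r = 0.22 with FOXO1 (difference, permutation p = 0.0158, adjusted 0.110).

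NRAS had r = -0.63 with FOXO1 and -0.60 with IGFBP7 in RES (permutation p = 0.0175 and 0.0155, both adjusted to 0.143), and without RES sows 5 and 7 these were -0.45 and -0.10. MAP2K2 had r = -0.48 with FOXO1 and -0.42 with IGFBP7 in RES (permutation p = 0.0692 and 0.104, adjusted 0.230 and 0.312). Without RES sows 3 and 5 the MAP2K2 values were -0.68 and -0.70. In FF, BRAF had r = 0.74 with FOXO1 (permutation p = 0.00418, adjusted 0.0585), and 0.56 without FF sows 10 and 14. MAPK3 had r = 0.58 with CDKN1A in RES (permutation p = 0.0305, adjusted 0.166; rho = 0.80, p = 0.00101, not adjusted) and 0.75 without RES sows 3 and 5, and 0.07 in FF. GRB2 had r = -0.33 with FOXO1 in RES (permutation p = 0.249, adjusted 0.454). Within the upper and lower quality groups of RES it was -0.83 and -0.86 (n = 7 each, exact permutation p = 0.0123 and 0.0163, not adjusted). In FF, NRAS had r = 0.07 with FOXO1 and 0.40 with IGFBP7, and both values depended on the quality group and on where FF sow 10 was placed. Upper quality FF sows gave r = -0.85 with FOXO1 (n = 7, exact permutation p = 0.0234, not adjusted) and lower quality FF sows 0.31 (n = 6), and with FF sow 10 in the upper group these turned to 0.23 and -0.82. With IGFBP7 they gave -0.31 and 0.84 (n = 6 for the latter, exact permutation p = 0.0333, not adjusted), and 0.37 and 0.58 with sow 10 moved. The FF value of NRAS with CDKN1A was likewise -0.33 and 0.45, and 0.07 and 0.10 with sow 10 moved. All these correlations share the same libraries and size factors.

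**Figure D5:**
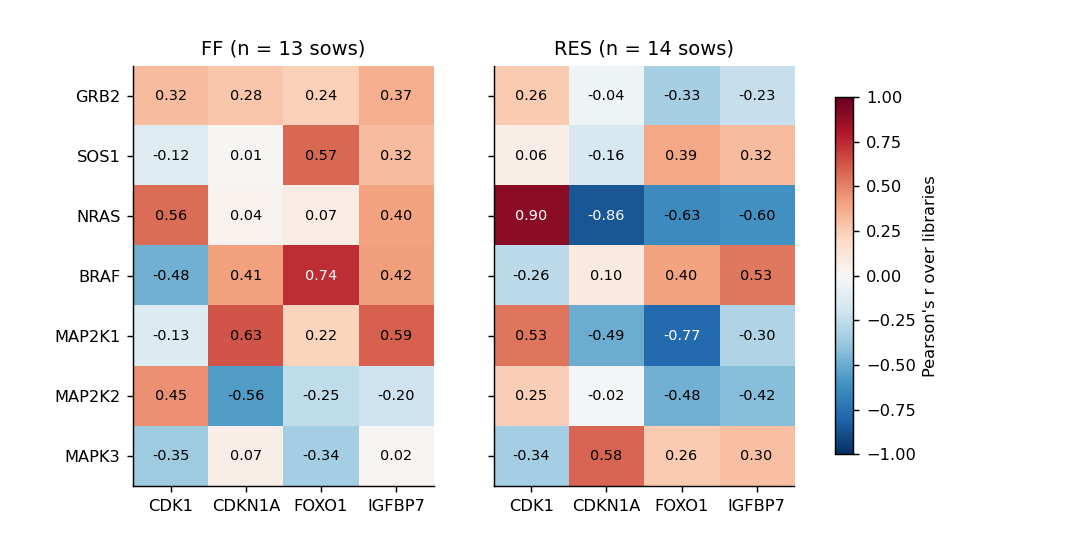
Pearson's r over libraries between each cascade gene (rows) and CDK1, CDKN1A, FOXO1 and IGFBP7 (columns), in FF on the left and RES on the right, from blue (-1) to red (1). In RES the NRAS row runs from 0.90 with CDK1 to -0.86 with CDKN1A, and in FF, over all 13 sows, the same row lies between 0.04 and 0.56.

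Among themselves the cascade genes did not form a common pattern. On log2 normalized counts after subtracting each group's mean, over 27 libraries, BRAF went with SOS1 (r = 0.67) and against MAP2K2 (-0.75). SOS1 also went against MAP2K2 (-0.66) and MAPK3 (-0.45). These values include RES sow 3, set here against the 12 other RES sows without sow 5. It lay below all of them in SOS1 and BRAF, at 0.797 and 0.823 times their median. In MAP2K2 and MAPK3 it lay above all of them, at 1.85 and 2.83 times. How far these r values rest on that sow was not tested. GRB2 went with MAP2K1 (0.47) and MAP2K2 (0.45), NRAS with MAP2K1 (0.43), and MAP2K1 and MAP2K2 had r = -0.01. By the same measure, over 7938 genes, the pattern most like that of NRAS was RECQL, a DNA helicase gene (r = 0.91), then DDX52 and MYEF2 (0.87 each), and CDK1 stood at rank 283 (0.72). Most like GRB2 were DCTN3, MRPL24 and GAPDH (0.79 to 0.83). MYSM1, JAK2 and PPM1A were most like SOS1 (0.82 to 0.84), and CNOT6L, CCNT2 and ASH1L most like BRAF (0.86 to 0.88). UHMK1, RBM18 and GCLM were most like MAP2K1 (0.84 each), DDB1, SEC61A1 and FBL most like MAP2K2 (0.83 to 0.85), and TEX261, OGDH and PCNX3 most like MAPK3 (0.81 to 0.82). Of these 21 genes, MRPL24 and MYEF2 rose and PPM1A fell in RES by the edgeR test, which called 14.1% of all genes tested.

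Around the 7 genes, 98 further pathway genes in 9 lists were examined, of which 79 were tested. The edgeR test called 8 (10.1%, where 14.1% of all genes were called), and 4 rose and 4 fell in RES. None was called among 11 receptor genes, 4 RAS GTPases, 9 RAS GAP and turnover genes, 7 genes of RAS prenylation and transport and 7 ERK and ERK-activated kinase genes. The numbers at an unadjusted p under 0.05 in these were 1, 0, 1, 0 and 1. The median log2 fold change of the receptors was -0.19.

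Among 8 ligands, BTC, the betacellulin gene, whose product binds epidermal growth factor receptors, fell in RES. It was at 5.62, 17.1 and 181 normalized counts in FF and at 0, 11.0 and 28.1 in RES. Its log2 fold change was -1.54 ± 0.51 (edgeR adjusted p = 0.0403), and 11 of 14 RES sows were below the FF median. Its call held in 16 of 27 fits with a library left out (adjusted p from 0.0245 to 0.187) and was lost without RES sows 3 and 5 (0.0708). Without FF sow 14 alone the log2 fold change was -0.86 (adjusted p = 0.187). Of 13 adaptors and exchange factors 2 fell. RASGRF2, a calcium-regulated exchange factor of RAS, was at 43.2 (median) in FF and 17.0 in RES, log2 fold change -1.01 ± 0.24 (adjusted p = 0.00497), and 13 of 14 RES sows were below the FF median. IRS1, the substrate of the insulin and IGF1 receptors to which GRB2 binds, was at 421 and 316, log2 fold change -0.49 ± 0.15 (adjusted p = 0.0267), with 12 of 14 below. RASGRF2 was called in all 27 fits with a library left out. IRS1 was called in 25, and not without FF sow 6 (0.0618) or FF sow 8 (0.0509).

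Among 14 RAF kinases and regulators 2 rose. HSP90AB1, the HSP90 beta chaperone that holds RAF kinases in a foldable state, was at 6083 to 8812 in FF and 7589 to 11352 in RES. All 14 RES sows were above the FF median, and the log2 fold change was 0.30 ± 0.07 (edgeR adjusted p = 0.00333). YWHAZ, a 14-3-3 protein that binds phosphorylated RAF, had a log2 fold change of 0.33 ± 0.10 (adjusted p = 0.0213). Among 6 scaffold genes LAMTOR2 (0.31 ± 0.10, adjusted p = 0.0422) and IQGAP1 (0.21 ± 0.07, adjusted p = 0.0492) rose. LAMTOR1, which anchors the same lysosomal complex as LAMTOR2, fell (-0.36 ± 0.12, adjusted p = 0.0430). HSP90AB1 and YWHAZ were called in all 27 fits with a library left out, LAMTOR2 in 13 (adjusted p from 0.0135 to 0.0765), LAMTOR1 in 11 (0.0221 to 0.0760) and IQGAP1 in 7 (0.0213 to 0.0849). Without RES sows 3 and 5 LAMTOR2 (0.0818) and IQGAP1 (0.0607) were not called.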

How the data were processed

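The members and lists were chosen with earlier results of these data known. The deposited files hold raw counts of read pairs per Ensembl gene in 27 libraries (27 sows, ribosomal RNA removed, strand kept by dUTP). As the methods and file headers say, the authors trimmed reads with SOAPnuke, aligned them with HISAT2 2.2.1 to Sscrofa11.1, kept unique hits with SAMtools 1.16.1, removed PCR copies with UMI-tools 1.1.4 and counted with featureCounts 1.6.2 on Ensembl release 110 exons, with no strand option.

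Symbols (15623 identifiers), positions, exon lengths and sequences came from NCBI tables and the RefSeq annotation of the same build. Tested were identifiers that have a symbol and average at least 5 counts, 38 small RNAs left out. RES was tested against FF with edgeR 4.0.16 (TMM, quasi-likelihood; R 4.3.3), a call being a Benjamini-Hochberg adjusted p under 0.05, with 95% intervals from its standard error. Alternatives were DESeq2 1.42.0, limma 3.58.1 voom, other scalings and filters, a replicate block, quality group, RIN or GC as covariates, each quality group alone, and each library left out. GC as a covariate and leaving out RES sows 3 and 5 were chosen after seeing the data, as were the correlations with CDKN1A, FOXO1 and IGFBP7.

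Normalized counts are counts divided by DESeq2 size factors over 17467 identifiers. Correlations and shares used two-sided permutation tests (100000 resamples, smallest p 1e-05; all permutations within quality groups), in Python 3.11.15 with scipy 1.17.1. For a difference in r, diet labels were permuted over values standardized within groups. Log2 values for likeness had 1 added. Genes named are the members, CDK1, paralogs, the called genes of the lists and the 3 genes most like each member; CDKN1A, FOXO1, IGFBP7 and SNAPC5 were added. Part of the planned comparisons is not reported here. The edgeR test and the permutation test of a single correlation were tried on simulated data, and the other tests were not. Quality groups were read from the supplement's read statistics. The supplement marks no sample as excluded, and its FF row of lowest RNA integrity is not the sow number missing from the labels. Its numbering may therefore differ from that of the labels, which leaves the read statistics of FF sow 10 uncertain. The quality group, RIN and GC fits were repeated with that sow given the row before its own, which puts it in the upper group (chosen after seeing the data).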

Additional observations from a re-analysis of the deposited data

Results flagged for a closer look

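The correlation of MAP2K1 with CDKN1A differed between the groups. MAP2K1 had r = 0.63 with CDKN1A in FF (permutation p = 0.0204, adjusted over 42 correlations 0.143; rho = 0.55) and r = -0.49 in RES (permutation p = 0.0711, adjusted 0.230; rho = -0.72). The Fisher z of r was lower by 1.29 in RES (z difference -1.29, permutation p = 0.00156, adjusted over 21 differences 0.0328). This was the only 1 of these 21 differences past the threshold, and neither correlation by itself was. Over the 27 fits with a library left out the z difference was -1.53 to -1.16, with permutation p values from 0.00067 to 0.00721. Without the 2 sows of each group farthest from the MAP2K1 median (FF 2 and 7, RES 4 and 11) the difference was -1.25 (permutation p = 0.0301), on residuals from the quality groups -1.40 (p = 0.00225), and on TMM-scaled counts -1.27 (p = 0.00064). Within the quality groups r was 0.84 and 0.68 in FF (0.86 and 0.58 with FF sow 10 in the upper group) and -0.51 and -0.40 in RES. CDKN1A lay between 65.9 and 302 normalized counts in FF and between 16.6 and 124 in RES. MAP2K1 shares exon bases with SNAPC5 on the opposite strand. Whether leaving pairs that meet both genes uncounted bears on these values was not tested.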

How the results depend on the processing

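Every cascade gene with an unadjusted p under 0.05 (GRB2, NRAS, MAP2K2, BRAF) kept its direction in all fits run. Members called were 0 of 7 in the main comparison and 1 (GRB2) with DESeq2 size factors (15.1% of all genes called), with DESeq2 (17.0%) and with all identifiers (13.0%), 1 (MAP2K2) in the upper quality group (17.8%), 3 with voom (28.0%), and 0 to 3 without 1 library. All genes called were 3193 with voom, 1 in the lower quality group and 1182 to 2350 without 1 library, against 1610. Pathway genes called were 18 with voom, 5 with RIN, 0 in the lower quality group and 3 to 11 without 1 library, against 8. Members correlated with CDK1 were 1 in FF without the 2 farthest sows (BRAF), 0 to 1 in FF without 1 library, 2 in RES by Spearman's rho (NRAS, MAP2K1) and 0 in the upper quality group. The MAP2K2 share difference was -0.20 in the lower quality group.

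Some log2 fold changes and correlations with CDK1 changed sign. The log2 fold change of SOS1 was 0.000989 with DESeq2 size factors, 0.00371 with all identifiers and 0.0764 in the lower quality group, that of MAP2K1 was -0.00992 with RIN, and that of MAPK3 0.0268 in the lower group. The r with CDK1 was 0.17 for MAP2K1 in FF without the 2 farthest sows and -0.20 to 0.12 without 1 library. For SOS1 in RES it was -0.0681 on the log2 scale, -0.0891 on TMM-scaled values and -0.0914 in the lower quality group, and -0.0858 to 0.24 without 1 library. For BRAF in RES it was 0.0487 without the 2 farthest sows and -0.37 to 0.0157 without 1 library. In each case the cause was not tested.

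With FF sow 10 given the other supplement row, the upper quality group called 1033 genes, 1 member (MAP2K2) and 4 pathway genes, and the lower called 0 of each (edgeR, adjusted). At an unadjusted p under 0.05 the lower group had 0 members. With GC as a covariate 5 pathway genes were called. The log2 fold change of SOS1 was then 0.00949 with GC and 0.0550 in the lower group, and that of MAPK3 0.0673 in the lower group. The MAP2K2 share difference in the lower group was 0.84.

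Sow numbers do not pair FF with RES sows, since the deviations of same-numbered libraries had r from -0.22 to 0.30 and 1 of 13 pairs was over 0.1. With a replicate block 1086 genes, 0 members and 2 pathway genes were called. Depth limits HRAS, with 1 to 16 counts per library.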

Other observations

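Among the paralogs, SOS2 had r = -0.13 with CDK1 in FF and -0.06 in RES, and ARAF had -0.06 and -0.28. HRAS had r = 0.58 in FF and -0.12 in RES at a few counts per library. These are descriptions with no test, over 13 FF and 14 RES sows.

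Of the pathway genes just outside the threshold, HGF, the ligand of the MET receptor, was at a median of 127 normalized counts in FF and 74.8 in RES (log2 fold change -0.70 ± 0.25, edgeR adjusted p = 0.0549), and 13 of 14 RES sows were below the FF median. YWHAQ, another 14-3-3 protein gene, was at 2130.4 and 2740.2 (0.30 ± 0.10, adjusted p = 0.0526), with 12 of 14 above it. Both were chosen after their values were seen.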
